A study of Oryza sativa with 6 samples.

Results

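A segment of rice chromosome 11 in which neighbouring genes differed between a diploid line and its tetraploid in opposite directions was described gene by gene. Its members were the 81 rows of the deposited count table, of 55986 rows in all, whose identifiers run from LOC_Os11g11770 to LOC_Os11g12590 on chromosome 11. The last digits of an identifier, the locus number, give the rank of a gene model on its chromosome and no distance. The limits of the segment were set where runs of neighbouring genes differed between the lines in these same counts. Differences between the lines inside it are therefore a description. Where members are counted by the thresholds of the fit over all genes, the count only sorts them and is no test of the segment.

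Balilla-2x is a diploid variety of Oryza sativa ssp. japonica, and Balilla-4x is the tetraploid made from it by artificial chromosome doubling. RNA came from leaves of 4-week-old plants of both lines, labelled with the treatment normal and grown in a paddy field in Shanghai. Each line was represented by 3 libraries. Separate plants are not named in the labels, nor is the number of tetraploid founders, so the SD values measure the spread between libraries, which may be technical. Library totals ran from 17147985 to 18106962 counts in Balilla-2x and from 16738447 to 17078688 in Balilla-4x. At these totals 3 counts equal 0.17 to 0.178 CPM (counts relative to the library size, scaled by TMM), and this was used as the floor for a gene with 0 counts.

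Genome doubling copies every chromosome of a plant, so a tetraploid derived in this way starts with the gene content of its diploid parent. Rice chromosome 11 is known for clusters of similar neighbouring genes, many of them disease resistance genes, and such clusters often differ in gene content between rice lines. The files give the members by locus identifier only, and 0 of the 81 identifiers matched the RefSeq gene table, so no function is assigned to any member here. For the same reason leaf marker genes were not checked. Reads of near-identical copies or of overlapping genes may have been assigned to either partner, since no source used here states the counting rules. In whole leaves, fewer cells of a type and less RNA per cell cannot be told apart.

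Of the 81 members, 40 had at least 1 count in a library and 27 passed edgeR's filter on low counts. In 10 of these 27 the tetraploid was at least 2-fold lower and in 9 at least 2-fold higher, with an adjusted p under 0.05 in edgeR's quasi-likelihood test over all 20976 tested genes. Of all tested genes 5.18% were lower and 6.55% higher by the same limits, and on chromosome 11 these shares were 10.5% and 9.56%. An adjusted p under 0.05 alone was reached by 23 of the 27, against 26.1% of all tested genes. These shares are given as background, since the segment was chosen on this contrast. In 23 of the 27 the libraries of the lines did not overlap, against 44.3% of all tested genes. The median fitted log2 fold change of the 27 was -0.54, and that of all tested genes was 0.01.

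The 2 directions were separated by position, with an exception. From LOC_Os11g11770 to LOC_Os11g11990, called the first stretch, 9 of 12 tested members were lower in the tetraploid and 0 higher. From LOC_Os11g12010 to LOC_Os11g12590, the second stretch, 9 of 14 were higher and 1 was lower. LOC_Os11g12000, which lies between these stretches, was in neither group. Read in order, the 19 members past the 2-fold limit formed 18 successive pairs, and 3 of these pairs joined opposite directions.

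**Figure D1:**
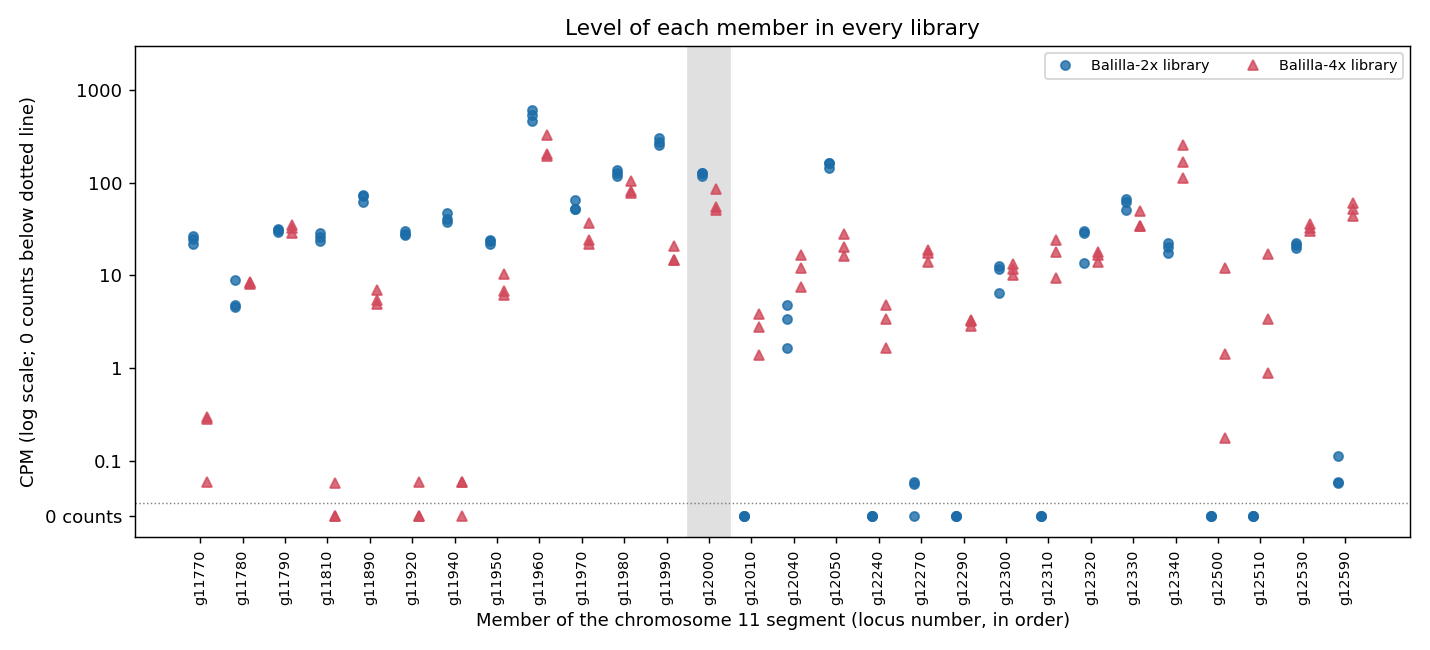
Level of each member in every library, in CPM on a log scale, with members in locus order and libraries at 0 counts drawn below the dotted line. The 27 tested members and LOC_Os11g12500 are shown, and the grey band marks LOC_Os11g12000. Left of the band several Balilla-4x triangles lie at or near 0 counts, and right of it several Balilla-2x circles do.

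In the first stretch, 4 members were read at moderate levels in the diploid and almost not at all in the tetraploid. LOC_Os11g11770, the first member of the segment, had 473, 434 and 365 counts in the Balilla-2x libraries and 5, 5 and 1 in the Balilla-4x libraries. LOC_Os11g11810 had 411, 455 and 484 counts in Balilla-2x and 0, 1 and 0 in Balilla-4x. LOC_Os11g11920 had 499, 535 and 458 counts in Balilla-2x and 1, 0 and 0 in Balilla-4x. All Balilla-2x libraries of these genes lay far above all Balilla-4x libraries. LOC_Os11g11940 followed the same pattern, with 661, 710 and 802 counts in Balilla-2x and 1, 0 and 1 in Balilla-4x.

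The diploid levels of these 4 genes were 24.4 ± 2.61 CPM for LOC_Os11g11770, 25.9 ± 2.69 for LOC_Os11g11810, 28.6 ± 1.58 for LOC_Os11g11920 and 41.8 ± 5.20 for LOC_Os11g11940 (SD, n = 3). With so few counts in the tetraploid, the ratio of Balilla-2x to Balilla-4x has a wide counting interval. It was 115 for LOC_Os11g11770, with an exact 95% interval of 64.0 to 231. For LOC_Os11g11810 it was 1341, with an interval of 240.2 to 52987. LOC_Os11g11920 had a ratio of 1482 (265 to 58556) and LOC_Os11g11940 a ratio of 1079 (298 to 8914). Single counts decide such ratios. Without Balilla-4x replicate 2 no tetraploid count of LOC_Os11g11810 was left, and without Balilla-4x replicate 1 none of LOC_Os11g11920. The measure then changed from a ratio to a lower bound against the floor of 3 counts per library. These bounds, at least 148-fold and at least 165-fold lower, cannot be set against the ratios as a smaller difference. Without Balilla-4x replicate 2 the ratio was 978 for LOC_Os11g11920 and 712 for LOC_Os11g11940. The intervals cover counting error only, and a count of 0 shows only that no read was assigned to the gene model.

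A further 5 members of the first stretch were lower but still read in the tetraploid. LOC_Os11g11990, the last gene of the stretch, had 4508, 4902 and 5194 counts in Balilla-2x and 351, 260 and 252 in Balilla-4x. Its level was 280.5 ± 26.2 CPM in the diploid and 16.7 ± 3.36 CPM in the tetraploid (SD, n = 3 per line), a log2 fold change of -4.07 ± 0.16 (SE). LOC_Os11g11890 had 1270, 1314 and 1048 counts in Balilla-2x and 119, 86 and 93 in Balilla-4x, a log2 fold change of -3.59 ± 0.15 (SE). In both genes the lowest diploid library was several times the highest tetraploid library. LOC_Os11g11950 had 387, 421 and 404 counts in Balilla-2x and 178, 108 and 115 in Balilla-4x, a log2 fold change of -1.58 ± 0.20 (SE).

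The remaining lower members were near the 2-fold limit and included the most abundant gene of the segment. LOC_Os11g11960 had 9587, 10808 and 7791 counts in Balilla-2x and 5536, 3596 and 3355 in Balilla-4x. This was 539 ± 75.0 CPM against 242 ± 71.9 CPM (SD, n = 3 per line), a log2 fold change of -1.16 ± 0.20 (SE). LOC_Os11g11970, a model of 216 bases beside it, had 925, 1163 and 873 counts in Balilla-2x and 623, 420 and 370 in Balilla-4x, a log2 fold change of -1.05 ± 0.20 (SE). The lines did not overlap in either gene, but Balilla-4x replicate 1 lay closer to the diploid than the other Balilla-4x libraries did. LOC_Os11g11970 was under the 2-fold limit when libraries were scaled by their totals, and also without Balilla-2x replicate 2, Balilla-4x replicate 2 or Balilla-4x replicate 3.

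The other tested members of the first stretch did not reach a 2-fold difference. LOC_Os11g11980 had 2088, 2424 and 2117 counts in Balilla-2x and 1768, 1355 and 1410 in Balilla-4x, a log2 fold change of -0.54 ± 0.13 (SE). Its difference lost the adjusted p threshold without Balilla-2x replicate 2, Balilla-4x replicate 2 or Balilla-4x replicate 3. LOC_Os11g11790 had 549, 558 and 497 counts in Balilla-2x and 600, 564 and 491 in Balilla-4x, and its lines overlapped. LOC_Os11g11780 had 156, 81 and 80 counts in Balilla-2x and 141, 143 and 146 in Balilla-4x. There Balilla-2x replicate 1 stood with the tetraploid, and the other Balilla-2x libraries were lower. Both genes lie between LOC_Os11g11770 and LOC_Os11g11810, which were nearly unread in the tetraploid.

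**Figure D2:**
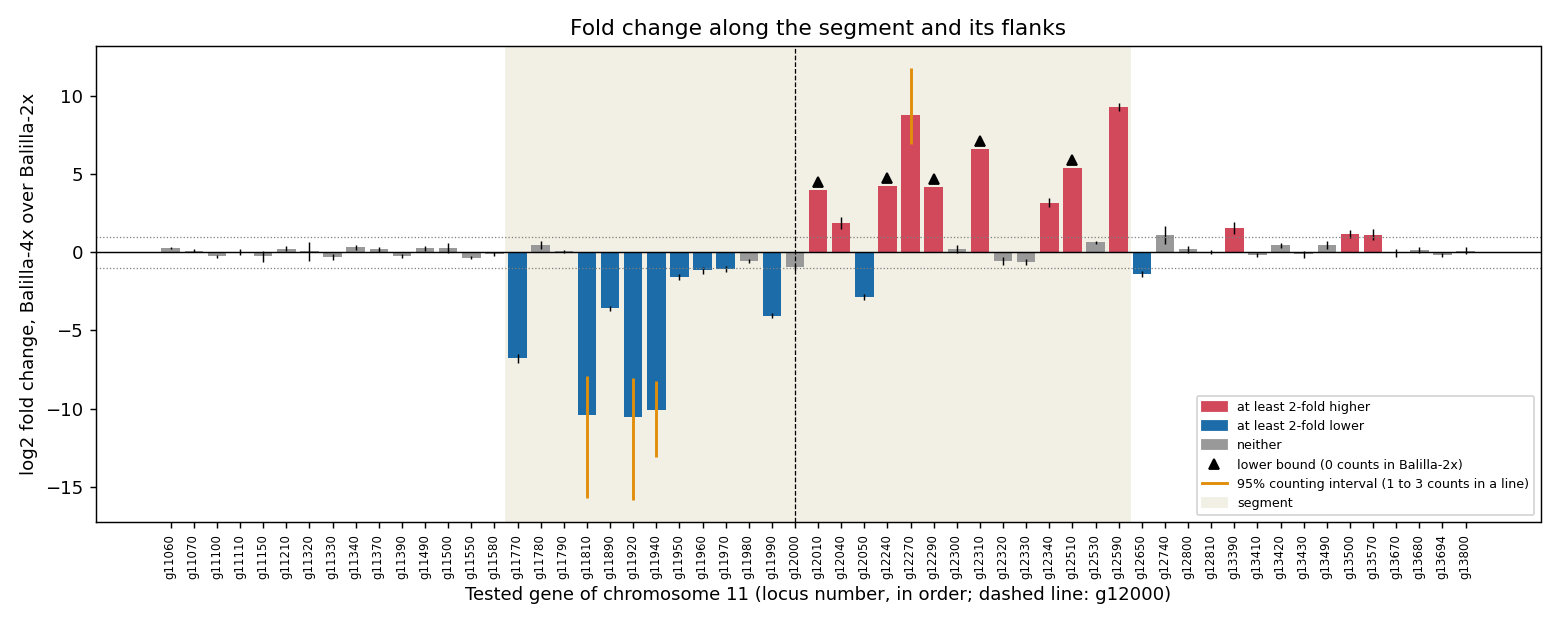
Log2 fold change of Balilla-4x over Balilla-2x for the 27 tested members (shaded) and the 15 tested genes on each side, in locus order. Black bars are SE, orange bars are 95% counting intervals where a line had 1 to 3 counts in all, triangles mark lower bounds, and dotted lines mark 2-fold. Members past the 2-fold limit are lower on the left of the shaded segment and higher on the right, except LOC_Os11g12050. Grey bars on both sides are members that did not pass it. Of the 15 genes before the segment, 0 pass the 2-fold limit.

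At the border the direction turned within a few gene models. LOC_Os11g11990 was 16.8-fold lower in the tetraploid. The next model, LOC_Os11g12000, had 2079, 2243 and 2172 counts in Balilla-2x and 1454, 957 and 881 in Balilla-4x, or 125 ± 5.78 CPM against 63.7 ± 18.7 CPM (SD, n = 3 per line). Its log2 fold change of -0.97 ± 0.18 (SE) lay just short of 2-fold, and all Balilla-4x libraries were below all Balilla-2x libraries. Without Balilla-4x replicate 1 it was -1.24 and without Balilla-2x replicate 1 it was -1.01, both past 2-fold. With any other library left out it stayed under 2-fold, from -0.96 to -0.83, and with libraries scaled by their totals it was -0.91. LOC_Os11g12010 then had 0 counts in every Balilla-2x library and 66, 49 and 24 in Balilla-4x, at least 15.6-fold higher against the floor of 3 counts per library. The tetraploid level of LOC_Os11g12010 was nevertheless low, at 2.69 ± 1.24 CPM (SD, n = 3).

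The models after it did not settle into 1 direction at once. LOC_Os11g12020, of 265 bases, had 3, 3 and 1 counts in Balilla-2x and 4, 7 and 0 in Balilla-4x and was not tested. LOC_Os11g12040 was read in both lines, with 59, 85 and 28 counts in Balilla-2x and 282, 209 and 128 in Balilla-4x, a log2 fold change of 1.86 ± 0.40 (SE). LOC_Os11g12050 turned back to the direction of the first stretch, with 2564, 2863 and 2742 counts in Balilla-2x and 479, 356 and 275 in Balilla-4x. Its level was 157 ± 9.70 CPM in the diploid and 21.5 ± 6.10 CPM in the tetraploid (SD, n = 3 per line), a log2 fold change of -2.87 ± 0.19 (SE). From LOC_Os11g11990 to LOC_Os11g12050 the tested order was thus lower, lower by just under 2-fold, higher, higher and lower. Of the members past the 2-fold limit, LOC_Os11g12050 was the only one against the direction of its stretch. Among the others, LOC_Os11g12320 and LOC_Os11g12330 of the second stretch were lower by less than 2-fold, and LOC_Os11g11780 and LOC_Os11g11790 of the first stretch had log2 fold changes of 0.45 and 0.06. The next 18 models, 12060 to 12230, held 0 counts in Balilla-2x and 10 in Balilla-4x, all libraries together.

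In the second stretch, 7 tested members were read in the tetraploid and at 0 to 2 counts in each diploid library. LOC_Os11g12590, the last member of the segment, had 1, 2 and 1 counts in Balilla-2x and 756, 924 and 1040 in Balilla-4x. It reached 52.5 ± 8.20 CPM in the tetraploid (SD, n = 3), and the ratio of Balilla-4x to Balilla-2x was 685, with an exact 95% counting interval of 267 to 2515. LOC_Os11g12270 had 0, 1 and 1 counts in Balilla-2x and 298, 329 and 236 in Balilla-4x, a ratio of 435 (119.9 to 3594), or 288 without Balilla-2x replicate 1. Both genes were clearly read in every Balilla-4x library. LOC_Os11g12310 had 0 counts in each Balilla-2x library and 410, 313 and 160 in Balilla-4x, at least 98.8-fold higher.

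The others of this kind were weakly read. LOC_Os11g12240 had 81, 59 and 28 counts in Balilla-4x and 0 in the diploid, at least 18.8-fold higher. LOC_Os11g12290 had 55, 50 and 57 counts in Balilla-4x and again 0 in the diploid, at least 18.1-fold higher. The Balilla-4x libraries were close to each other in LOC_Os11g12290, while in LOC_Os11g12240 the highest was 2.9 times the lowest. LOC_Os11g12010 belongs here as well, and LOC_Os11g12510 is given with its neighbour LOC_Os11g12500. Median log2 fold change over the 14 tested members of this stretch was 5.84 as fitted and 3.56 with the genes at 0 counts placed at their lower bound.

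LOC_Os11g12340 was the most abundant member of the second stretch in the tetraploid and was also read in the diploid. It had 304, 394 and 341 counts in Balilla-2x and 4393, 2934 and 1917 in Balilla-4x. This was 19.9 ± 2.54 CPM against 179 ± 73.5 CPM (SD, n = 3 per line), a log2 fold change of 3.16 ± 0.28 (SE). The lowest tetraploid library lay well above the highest diploid library, but the Balilla-4x libraries differed 2.3-fold among themselves.

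The 4 members of the second stretch that were not past the 2-fold limit were read in both lines. LOC_Os11g12530 had 395, 376 and 332 counts in Balilla-2x and 557, 537 and 608 in Balilla-4x, a log2 fold change of 0.64 ± 0.11 (SE) without overlap. LOC_Os11g12330 had 1097, 1183 and 850 counts in Balilla-2x and 840, 596 and 585 in Balilla-4x, a log2 fold change of -0.62 ± 0.17 (SE). In LOC_Os11g12330 the lines did not overlap in CPM, yet the adjusted p threshold was lost without any one of 4 libraries, which were Balilla-2x replicates 1 and 2 and Balilla-4x replicates 2 and 3. It was also lost with limma on log2 of FPKM plus 1. LOC_Os11g12300 had 208, 221 and 109 counts in Balilla-2x and 226, 206 and 174 in Balilla-4x. LOC_Os11g12320 had 531, 502 and 229 counts in Balilla-2x and 306, 296 and 242 in Balilla-4x. In the last 2 genes Balilla-2x replicate 3 was well below the other Balilla-2x libraries, and the lines overlapped.

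LOC_Os11g12500 and LOC_Os11g12510, adjacent models, differed more between the tetraploid libraries than any other member with a mean of at least 10 counts in the line. LOC_Os11g12510 had 294, 59 and 15 counts in Balilla-4x and 0 in each Balilla-2x library. LOC_Os11g12500 had 205, 25 and 3 counts in Balilla-4x and likewise 0 in Balilla-2x, and it did not pass the filter on low counts. Both were highest in Balilla-4x replicate 1 and lowest in replicate 3, with 19.7-fold between these libraries in LOC_Os11g12510 and 68.6-fold in LOC_Os11g12500. Their Balilla-4x means of 7.15 ± 8.82 and 4.54 ± 6.51 CPM (SD, n = 3) had an SD above the mean. By the mean LOC_Os11g12510 was at least 41.4-fold higher and LOC_Os11g12500 at least 26.3-fold higher, and without replicate 1 these bounds were 12.2 and 4.62.

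The other 12 untested members with a count had at most 8 counts in a library, and 41 members had none in any. All 13 untested members with a count lay in the second stretch. Of them 9 had counts in the tetraploid only, as did 5 tested members, which makes 14 in all, and 0 members had counts in the diploid only. Among all 55986 rows, 2751 had counts in Balilla-4x only and 1764 had them in the diploid only. The share of members with no count, 50.6%, was close to that of chromosome 11 as a whole, 51.1%, and above that of the other chromosomes, 44.0%. It was 45.5% in the first stretch and 53.4% in the second.

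The summed level of the first stretch was lower in every tetraploid library, while the second sum depended on which of its abundant genes were included. The first stretch summed to 1221, 1348 and 1193 CPM in the Balilla-2x libraries and to 546, 372 and 364 CPM in the Balilla-4x libraries. Of the tetraploid sum, 83.4% came from LOC_Os11g11960, LOC_Os11g11970 and LOC_Os11g11980, which made up 57.7% in the diploid. The other 19 rows of the stretch summed to 531 ± 23.8 CPM in the diploid and 70.8 ± 9.63 CPM in the tetraploid (SD, n = 3 each), 7.50-fold lower. These 3 genes were set apart after their values had been seen.

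The second stretch summed to 293, 319 and 275 CPM in Balilla-2x and to 544, 396 and 321 CPM in Balilla-4x, so the lowest tetraploid library was barely above the highest diploid one. LOC_Os11g12050 alone was 53.0% of the diploid sum and 5.10% of the tetraploid sum. LOC_Os11g12340 was 6.74% of the diploid sum and 42.5% of the tetraploid sum. Without LOC_Os11g12340 the mean sum was 276 ± 20.9 CPM in the diploid and 242 ± 39.9 CPM in the tetraploid (SD, n = 3 each). The tetraploid mean was then the lower one, but by less than its SD, and the libraries of the lines overlapped. Without both genes, a choice made after the values had been seen, the sums were 119 ± 23.4 and 220.2 ± 33.9 CPM (SD, n = 3 per line).

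**Figure D3:**
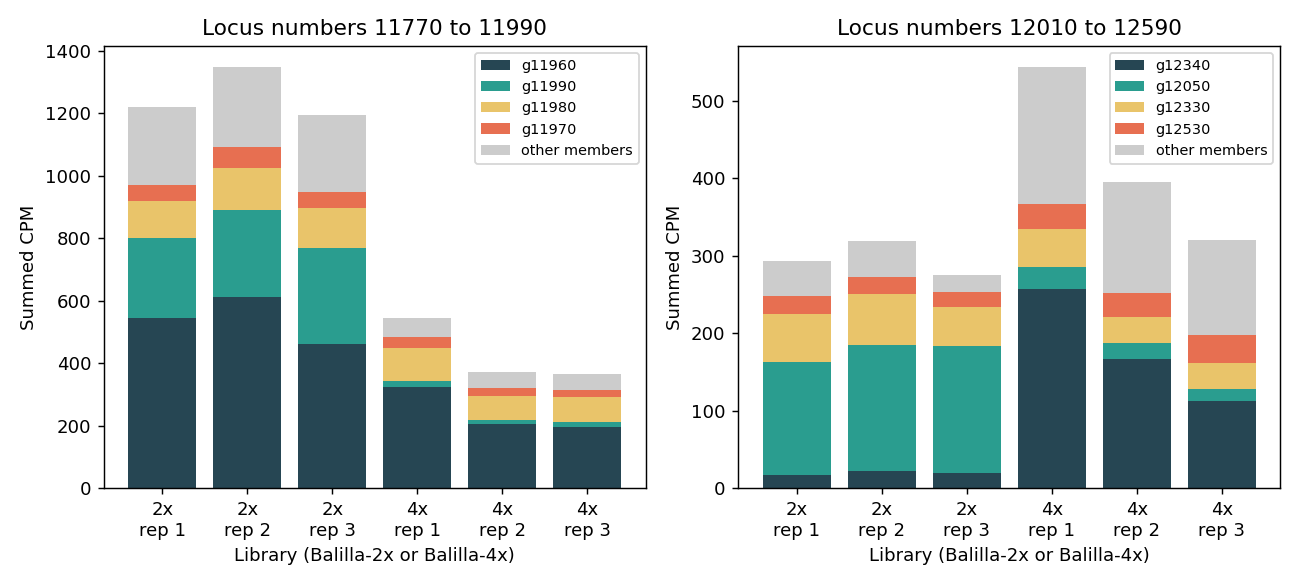
Summed CPM of the first stretch (left) and the second stretch (right) in each of the 6 libraries, with the 4 most abundant members of each stretch in colour and all other members in grey. On the left every Balilla-4x library is below every Balilla-2x library. On the right LOC_Os11g12050 fills 53.0% of the mean diploid sum and LOC_Os11g12340 fills 42.5% of the mean tetraploid sum.

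Levels per length were compared in FPKM. In Balilla-2x the highest member was LOC_Os11g11970 at 257 ± 36.0 FPKM, whose model is 216 bases long, followed by LOC_Os11g11960 at 198 ± 27.2 and LOC_Os11g11980 at 137 ± 10.5 (SD, n = 3). LOC_Os11g11990 came next at 62.1 ± 6.13 FPKM and LOC_Os11g12050 at 40.7 ± 2.72 FPKM (SD, n = 3). The libraries of these 5 members did not overlap between neighbours in the diploid order. In Balilla-4x the order began with LOC_Os11g11970 at 129 ± 38.1, LOC_Os11g11980 at 98.2 ± 15.6 and LOC_Os11g11960 at 92.6 ± 27.6 FPKM (SD, n = 3). All of these were highest in Balilla-4x replicate 1, so their SD does not measure how firm the order is within a library. LOC_Os11g11970 was first in each Balilla-4x library, while LOC_Os11g11980 and LOC_Os11g11960 changed places between libraries. LOC_Os11g12590 at 73.4 ± 10.8 and LOC_Os11g12340 at 48.5 ± 20.1 FPKM (SD, n = 3) followed, both from the second stretch.

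The tested members had a median model length of 2447 bases, implied by the counts and the FPKM values, against 1857 bases for tested genes of chromosome 11 and 1821 for all tested genes. The median was 2863.5 bases in the first stretch and 1824 in the second. Lengths ran from 216 bases for LOC_Os11g11970 to 5542 for LOC_Os11g12040.

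The spread between libraries of a line was not part of the rule that chose the segment. In Balilla-4x the 23 tested members with a mean of at least 10 counts had a median coefficient of variation (CV, SD over mean CPM) of 22.5%, against 13.3% over all tested genes. In Balilla-2x the median CV of 20 such members was 10.5%, against 12.1% over all tested genes. The tetraploid spread had a common direction. Balilla-4x replicate 1 was the highest tetraploid library in 18 of the 23 members (78.3%), against 38.1% of all tested genes, and replicate 3 was the lowest in 15 (65.2%), against 32.8%. Both held together in 14 members, or 60.9%, against 20.3% of all tested genes. Balilla-4x replicate 1 also stood apart outside the segment, being the lowest tetraploid library in 37.9% of all tested genes. Among the 23 members it was the lowest in 1. Of these 23, 7 passed the filter only through Balilla-4x, and the comparison is not matched for level. Among the 16 members with a mean of at least 10 counts in both lines, a choice made after seeing the data, the median CV in Balilla-4x was 21.3% at a median level of 24.4 CPM. For all 19779 such genes it was 12.9% at 18.5 CPM. Balilla-4x replicate 1 was highest in 14 of the 16 (87.5%), against 38.4% of those genes.

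The remaining 5 members were highest in another library. LOC_Os11g12590 was lowest in Balilla-4x replicate 1, LOC_Os11g12270 was highest in replicate 2, and LOC_Os11g11780, LOC_Os11g12290 and LOC_Os11g12530 were highest in replicate 3. Among the 30 flanking genes Balilla-4x replicate 1 was highest in 8 (26.7%), and their median CV in Balilla-4x was 12.2%. In Balilla-2x, replicate 3 was the lowest library in 11 of 20 members (55.0%), against 32.2% of all tested genes. Neighbouring genes are not independent, so these counts describe the libraries. Without Balilla-4x replicate 1 the counts were 9 lower members in the first stretch and 9 higher and 1 lower in the second. Members far past the 2-fold limit keep such counts fixed, so the counts do not measure the part of this library. Sizes moved: the log2 ratio of the summed level, Balilla-4x over Balilla-2x, went from -1.55 to -1.77 in the first stretch. In the second it went from 0.51 to 0.28.

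**Figure D4:**
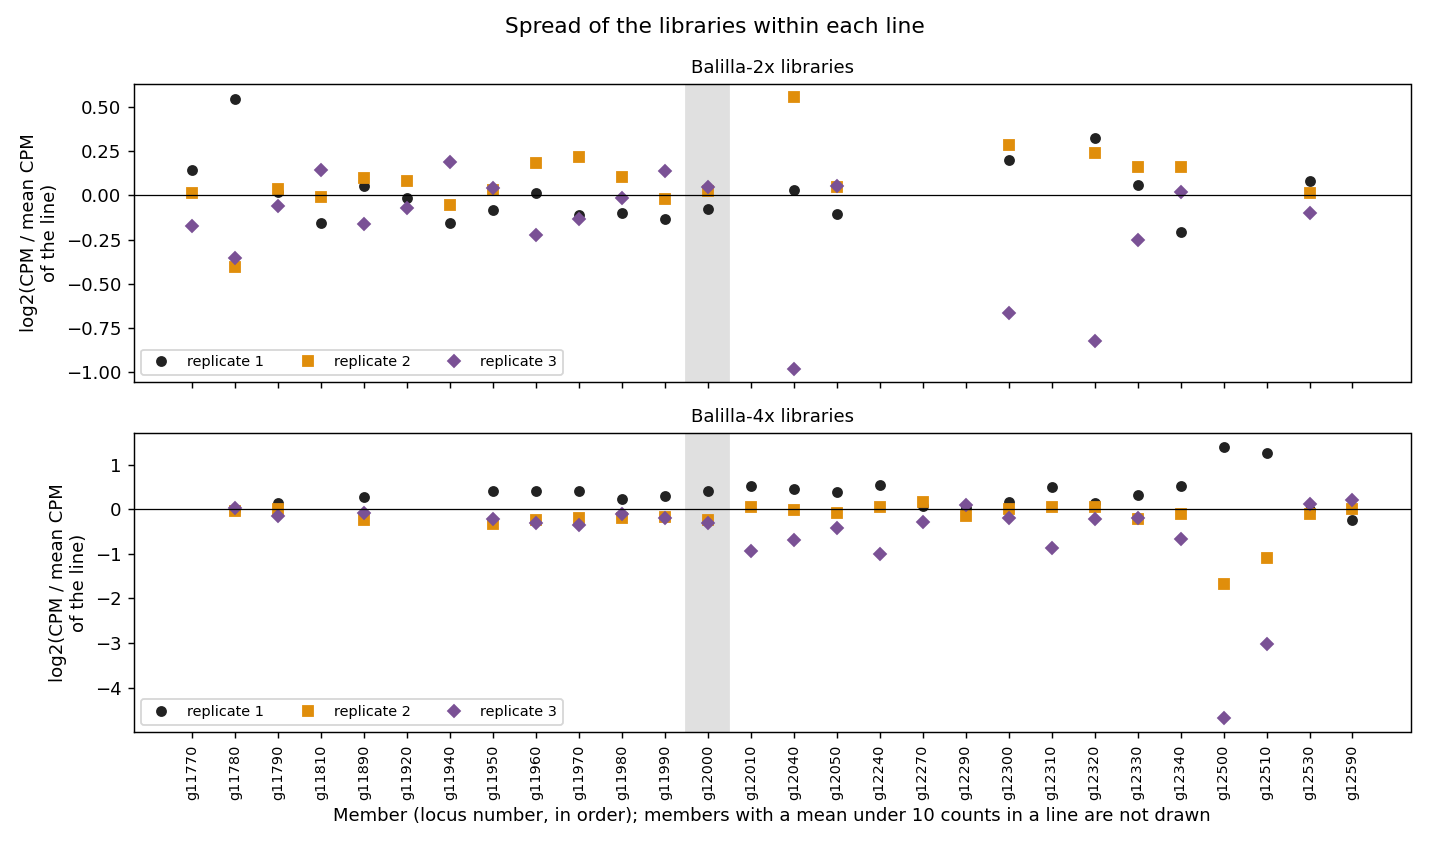
Deviation of each library from the mean of its line, member by member (log2 of CPM over mean CPM), for Balilla-2x (top) and Balilla-4x (bottom), with different vertical scales. Replicate 1 of Balilla-4x lies highest in 18 of the 23 tested members drawn there, and LOC_Os11g12500 and LOC_Os11g12510 are spread most widely.

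The start of the segment was set on these same counts, so the step there is a description and no result. Next in tested order after LOC_Os11g11770 came LOC_Os11g11780 and LOC_Os11g11790, which did not reach a 2-fold difference. The nearest tested gene before the segment, LOC_Os11g11580, had 740, 920 and 882 counts in Balilla-2x and 825, 829 and 649 in Balilla-4x, and the lines overlapped. Between this gene and LOC_Os11g11770 lay 17 rows with at most 4 counts in a library, 13 of them with none. Of the 15 tested genes before the segment, 0 passed the 2-fold limit, against 11.7% of all tested genes in either direction. Only 1 of the 15, LOC_Os11g11550, had an adjusted p under 0.05, with a log2 fold change of -0.36, against 26.1% of all tested genes. The median log2 fold change of the 15 was 0.06.

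Beyond the end of the segment the genes were mixed and their differences smaller. LOC_Os11g12650, the next tested gene after LOC_Os11g12590, had 491, 409 and 434 counts in Balilla-2x and 125, 210 and 174 in Balilla-4x, a log2 fold change of -1.38 ± 0.18 (SE). It thus lay on the lower side, next in tested order to a gene read almost only in the tetraploid. LOC_Os11g12740, the one after it, had 18, 6 and 4 counts in Balilla-2x and 18, 23 and 19 in Balilla-4x. Its log2 fold change of 1.10 ± 0.55 (SE) was past 2-fold but did not reach the adjusted p threshold, so it is not counted below. Of the 15 tested genes up to locus number 13800, 3 were at least 2-fold higher and 1 was lower, with an adjusted p under 0.05 in edgeR's test. By the same limits 6.55% of all tested genes were higher and 5.18% lower, and on chromosome 11 9.56% and 10.5%. So few flanking genes cannot be told apart from these shares. The median log2 fold change of the 15 was 0.15. The number of flanking genes past both the 2-fold limit and the adjusted p threshold, 4 in all, fell to 2 without Balilla-2x replicate 3 or Balilla-4x replicate 3.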

How the data were processed

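RNA of rice leaves was sequenced from 3 libraries of Balilla-2x and 3 of Balilla-4x, made with Illumina's TruSeq RNA kit from Trizol-extracted total RNA, per the labels' protocols. The authors deposited raw read counts per gene model, per the file headers, and FPKM values for each library, per the file headers. Per the submitters' processing notes, HISAT2 2.1.0 served as aligner. No counter, genome build, annotation or strand setting is named in the sources used here. The gene length implied by count, FPKM and library total was the same in every library within 0.01 bases for all 30986 genes with a count.

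The fit used edgeR 4.0.16 under R 4.3.3 (filterByExpr, TMM, quasi-likelihood F test, Benjamini-Hochberg adjustment over 20976 tested genes, adjusted p threshold 0.05, fold threshold 2). The tested genes held 99.9% of counts. The SE of a log2 fold change is its size divided by the square root of F. Alternatives used DESeq2 1.42.0 and limma 3.58.1 on log2 of FPKM plus 1. Genes at 0 counts in a line were placed at 3 counts per library. Ratios of few counts carry exact 95% binomial intervals. Libraries of a line differed beyond sampling noise (chi-square per degree of freedom at least 8.86). It was 13.8 to 15.5 for pairs of Balilla-2x libraries and 8.86 for Balilla-4x replicates 2 and 3. The pairs of Balilla-4x replicate 1 with replicates 2 and 3 had the highest values, 25.8 and 30.5. All tested members could be named with their values, untested ones with at least 10 counts in a library, and the 2 nearest tested genes on each side. LOC_Os11g12020, which lies at the border, and LOC_Os11g11550 were named beyond this rule after their values had been seen. The segment, its stretches and the lists were chosen with earlier results of these data known. The 39387 genes of the RefSeq table (assembly ASM3414082v1) matched 0 identifiers, so no sequence is shown.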

Additional observations from a re-analysis of the deposited data

How the results depend on the processing

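Under every other scaling, filter, prior count or test run, including limma on FPKM, the first stretch held 8 or 9 lower members and 0 higher, and the second held 8 to 10 higher and 1 lower. Among all tested genes, limma on log2 of FPKM plus 1 gave 1585 changed at least 2-fold, against 2459. The added value shrinks the folds of low genes, but this setting also differs in test and scaling. Which of these lowered the count was not tested. The log2 ratio of the summed level, Balilla-4x over Balilla-2x, was -1.55 in the first stretch, -1.94 without its most abundant row and -1.10 in FPKM. In the second stretch it was 0.51, -0.19 without LOC_Os11g12340, the row with the most counts over both lines, and 1.13 in FPKM. LOC_Os11g12050, which made up 53.0% of the diploid sum and 5.10% of the tetraploid sum, was not left out alone.

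Leaving out each library in turn gave 3029 to 6600 changed genes, against 5481, and 1814 to 2943 changed at least 2-fold. The fewest came without Balilla-4x replicate 2 and the most without Balilla-4x replicate 1. The count of changed genes was 3269 without Balilla-2x replicate 3 and 3306 without Balilla-4x replicate 3. The same omissions gave 8 to 9 lower members in the first stretch, 9 to 10 higher in the second, 2 to 4 changed flanking genes, and log2 ratios of the sums of -1.77 to -1.44 and 0.28 to 0.67, the value of 0.28 being that without Balilla-4x replicate 1. The causes were not tested. Of 351 single results for the 27 tested members, 338 kept their direction and their side of the adjusted p threshold, 9 lost the threshold, 2 gained it and 2 reversed. With a library left out, the log2 fold change of LOC_Os11g11790 ran from -0.02 (without Balilla-4x replicate 1) to 0.13 and that of LOC_Os11g12300 from -0.06 (without Balilla-2x replicate 3) to 0.35. LOC_Os11g12330 and LOC_Os11g12510 lost the threshold with limma on log2 of FPKM plus 1.

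No pairing by replicate number was found: the correlation across genes of the deviations of libraries 1, 2 and 3 from their line means was -0.000739, -0.030 and -0.036. A replicate block gave these counts: 4617 genes changed, 2219 at least 2-fold, with 9 lower members in the first stretch, 9 higher and 1 lower in the second, and 4 changed flanking genes.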
